A study of Arabidopsis thaliana with 8 samples.

Results

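The late anthocyanin genes of *Arabidopsis thaliana* described here are 10 loci that act from the reduction of dihydroflavonols to the finished, decorated and vacuolar pigment, together with the MYB factor *PAP1*. They were chosen by gene identifier as *DFR* (AT5G42800), *LDOX* (AT4G22880), *TT19* (AT5G17220), *UGT75C1* (AT4G14090), *UGT79B1* (AT5G54060), *5MAT* (AT3G29590), *3AT1* (AT1G03940), *3AT2* (AT1G03495), *SCPL10* (AT2G23000) and *PAP1* (AT1G56650). All 10 appear among the 7948 genes listed in at least 1 of the 5 comparison tables. Seedlings of 4 genotypes were harvested whole on day 7 under constant white light, and each genotype gave 2 libraries of poly-A RNA. Col-0 was the wild type. The *nf-yc triple* mutant combined the insertion alleles *nf-yc3-1*, *nf-yc4-1* and *nf-yc9-1*. An insertion in the gene itself made the *hy5* line, and *nf-yc triple hy5*, below the combined mutant, carried all 4 lesions. Each mutant genotype was 1 line, and no group received another treatment.

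Anthocyanins are red to purple flavonoid pigments that build up in the vacuoles of light-grown seedlings. DFR reduces dihydroflavonols to leucoanthocyanidins and LDOX, also called anthocyanidin synthase, turns these into coloured but unstable anthocyanidins. Sugars and acyl groups are then added, which stabilise the pigment, and the glutathione transferase TT19 is needed to bring it to the vacuole. HY5 is a bZIP transcription factor that promotes light responses and binds DNA with an ACGT core, among which the G-box CACGTG is the best known. NF-YC proteins pair with NF-YB proteins through a histone fold in the NF-Y trimer, which recognises CCAAT through its NF-YA subunit, and they can also work with other DNA-binding proteins.

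The promoters of 4 genes are shown because these are the ones that carry the G-box or the largest number of CCAAT boxes among the 10. Each runs from 250 bases before to 50 bases after the annotated gene start in RefSeq's annotation of the TAIR10.1 assembly, written 5′ to 3′ on the strand of the gene. Capitals mark the G-box (CACGTG), the ACGT core and the CCAAT box on either strand, and a CCAAT box on the other strand therefore reads ATTGG. The ACGT core lies inside the G-box, so each G-box is also an ACGT match.
*DFR* promoter, chr5:17165983-17166282, minus strand: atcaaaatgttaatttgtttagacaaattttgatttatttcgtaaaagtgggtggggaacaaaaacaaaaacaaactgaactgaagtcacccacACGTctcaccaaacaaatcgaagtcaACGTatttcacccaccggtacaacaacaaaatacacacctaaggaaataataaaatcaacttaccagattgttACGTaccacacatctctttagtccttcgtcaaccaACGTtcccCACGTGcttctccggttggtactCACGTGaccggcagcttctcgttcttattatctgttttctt
*LDOX* promoter, chr4:12006160-12006459, minus strand: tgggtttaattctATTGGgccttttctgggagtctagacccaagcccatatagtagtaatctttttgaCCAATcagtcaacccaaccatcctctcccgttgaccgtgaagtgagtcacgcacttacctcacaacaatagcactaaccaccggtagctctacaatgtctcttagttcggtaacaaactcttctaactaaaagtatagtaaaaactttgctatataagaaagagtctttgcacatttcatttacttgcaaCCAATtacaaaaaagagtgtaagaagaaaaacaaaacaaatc
*UGT79B1* promoter, chr5:21938347-21938646, minus strand: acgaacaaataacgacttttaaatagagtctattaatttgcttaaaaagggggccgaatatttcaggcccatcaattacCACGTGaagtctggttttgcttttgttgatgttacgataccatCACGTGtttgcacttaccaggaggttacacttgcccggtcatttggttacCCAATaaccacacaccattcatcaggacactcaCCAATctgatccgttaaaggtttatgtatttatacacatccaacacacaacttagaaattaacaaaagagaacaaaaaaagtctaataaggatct
*SCPL10* promoter, chr2:9791916-9792215, plus strand: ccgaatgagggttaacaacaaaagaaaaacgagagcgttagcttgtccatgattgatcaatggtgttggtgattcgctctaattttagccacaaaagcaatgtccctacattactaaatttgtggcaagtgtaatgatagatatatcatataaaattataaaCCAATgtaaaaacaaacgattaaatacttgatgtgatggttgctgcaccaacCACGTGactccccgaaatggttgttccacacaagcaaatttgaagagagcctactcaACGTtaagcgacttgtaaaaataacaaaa
The *DFR* promoter held 2 G-boxes, one 14 bases before the gene start and one at base 10 of the gene, among 6 ACGT cores, and no CCAAT box. *LDOX*, the next step of the pathway, had the opposite content, with 3 CCAAT boxes and no ACGT core. *UGT79B1* held 2 G-boxes, 171 and 128 bases before the start, and 2 CCAAT boxes, while *SCPL10* held 1 G-box 36 bases before the start and 1 CCAAT box. Windows of the same length without any of these letters belonged to *TT19*, *UGT75C1*, *5MAT* and *3AT2*. A G-box was thus present in 3 of 10 windows (30.0%), against 7.68% of 27443 protein-coding genes. An ACGT core was present in 4 of 10, against 49.9%, and a CCAAT box in 4 of 10, against 51.6%. Among 202 genes with a promoter window that were lower in both *nf-yc triple* and *hy5*, the shares were 19.3%, 65.3% and 45.5%. Matches describe letters in a window, and binding was not measured.

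**Figure D1:**
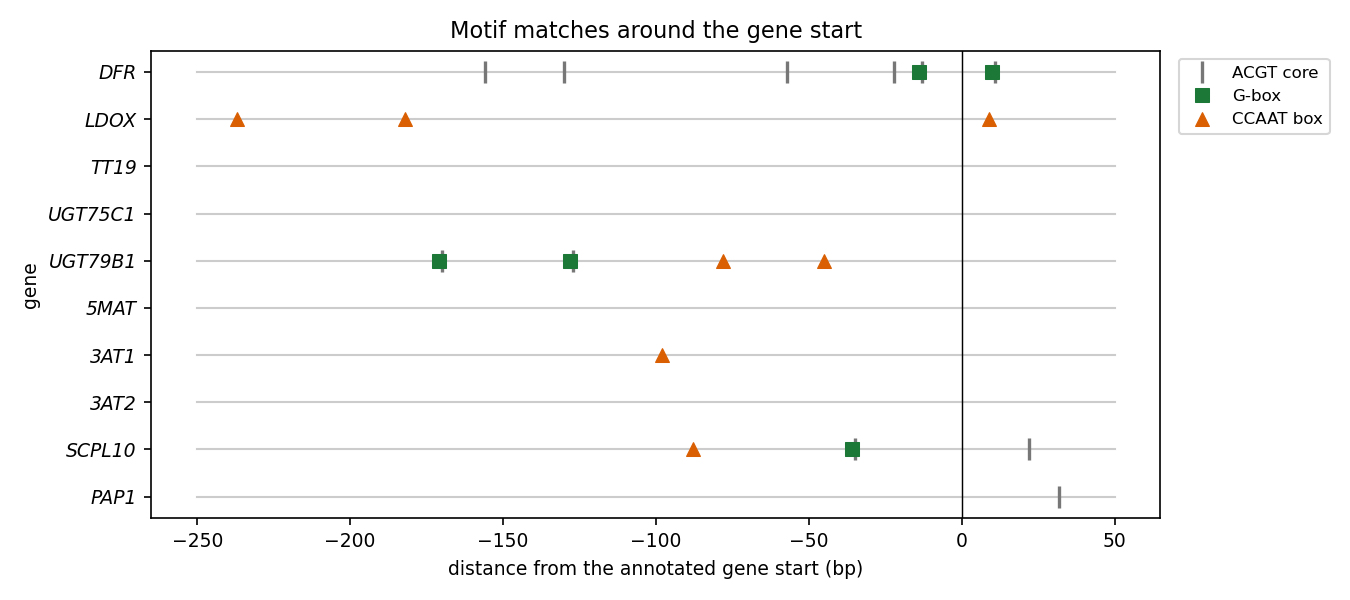
Positions of G-box (squares), ACGT core (ticks) and CCAAT box (triangles) matches on either strand in the 10 genes, by distance in bp from the annotated gene start. *DFR*, *UGT79B1* and *SCPL10* carry G-boxes, and 4 genes carry no match.

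The deposited tables hold a log2 fold change, a mean log2 CPM (counts scaled to library size) and p-values for each pair of genotypes, and only genes at an adjusted p under 0.05. A gene was called here when it passed that threshold and its log2 value amounted to 1.5-fold or more. No values of single libraries were analysed, depth is unknown, and no SD or n can be given for a gene. The error after ± is an approximate standard error of the log2 fold change implied by its p-value. Levels in CPM were derived for each genotype from the log2 fold change and the mean log2 CPM. They are not per length and are compared within a gene only. The Col-0 level of a gene differed between tables by a median of 0.03 on the log2 scale over 1567 genes. Levels of late genes in a mutant differed more between tables, by up to 0.11 for *UGT75C1* in *hy5*. As a check of the labels, *NF-YC3* (log2 fold change -4.08), *NF-YC4* (-0.97) and *NF-YC9* (-2.29) were lower in *nf-yc triple* than in Col-0. *HY5* was listed in no table, so the label of *hy5* was not checked by its own transcript.

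All 10 late genes were down-regulated in *nf-yc triple* relative to Col-0, where 2.59% of 19177 genes tested were called lower and 3.36% higher. Their median log2 fold change was -1.53, between -2.22 for *UGT79B1* and -0.74 for *PAP1*, and that of all genes listed lower in the same table was -0.44. In *hy5*, 9 of the 10 were lower than in Col-0, against a background of 4.9% lower and 7.13% higher, with a median of -2.48 beside -0.51 for all genes listed lower. *UGT79B1* was the one not listed there. The 10 genes were chosen with earlier results of these data known. Their counts and medians beside those of all genes are therefore a description only. No late gene was listed higher in any of the 5 tables. The Col-0 libraries are shared by these comparisons, and the values below are given side by side. In bulk seedlings, fewer pigmented cells and less RNA per cell cannot be told apart.

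**Figure D2:**
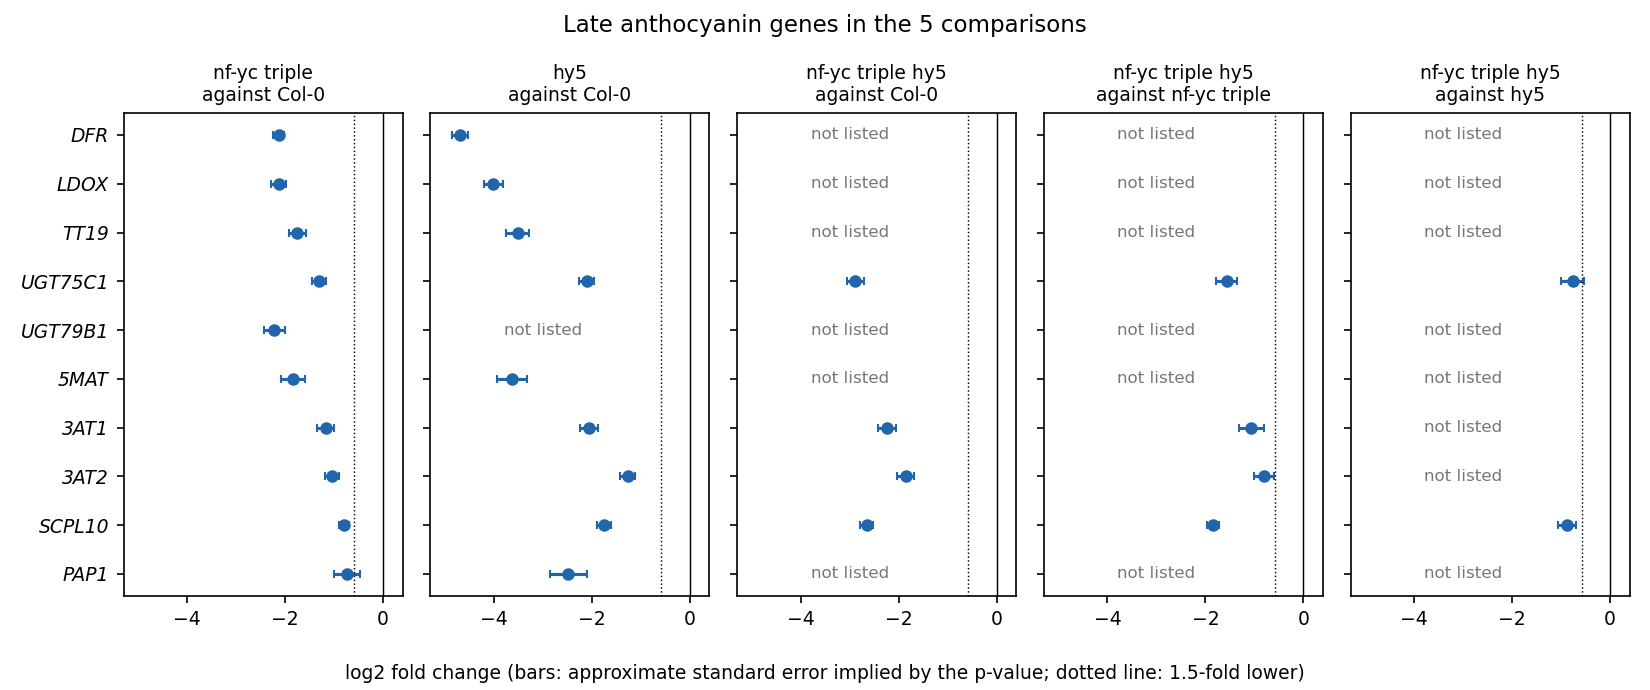
Log2 fold change of the 10 late anthocyanin genes in the 5 comparisons from the authors' deposited tables, with bars for the approximate standard error implied by the p-value and a dotted line at 1.5-fold lower. All listed values lie left of the dotted line, and 6 genes are not listed in the combined mutant against Col-0.

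Of the 9 late genes listed in *hy5*, *DFR* and *LDOX* had the largest decreases there. *DFR* had a derived level of 59.3 CPM in Col-0, 13.5 in *nf-yc triple* and 2.31 in *hy5*. Its log2 fold change was -2.13 ± 0.12 in *nf-yc triple* (adjusted p = 4.56e-71) and -4.69 ± 0.17 in *hy5* (adjusted p = 5.76e-174, the deposited edgeR values with Benjamini-Hochberg adjustment, as for every adjusted p below). In *hy5* it ranked as number 3 of 2305 genes listed lower. *LDOX* went from 38.1 CPM in Col-0 to 8.68 in *nf-yc triple* and 2.37 in *hy5*. Its log2 fold changes were -2.13 ± 0.15 and -4.02 ± 0.20. *DFR* and *LDOX*, which work one after the other, thus kept 22.7% and 22.8% of their Col-0 level in *nf-yc triple*. In *hy5* they kept 3.89% and 6.21%. The window of *DFR* holds G-boxes and no CCAAT box, and that of *LDOX* holds CCAAT boxes and no G-box. A link between these motifs and the decreases was not tested. Part of *LDOX* is 96.2% identical over 364 bases to AT4G22870, which is listed in no table, so reads could have been shared between them.

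*TT19* and the glycosyltransferase genes differed among themselves. *TT19*, needed for vacuolar uptake, stood at 17.7 CPM in Col-0, 5.25 in *nf-yc triple* and 1.55 in *hy5*. Its log2 fold changes were -1.75 ± 0.17 and -3.52 ± 0.23. *UGT75C1*, which glucosylates anthocyanins at the A ring, changed less, from 25.2 CPM to 10.5 and 6.07 (-1.31 ± 0.14 and -2.11 ± 0.15). *UGT79B1*, which adds xylose to the sugar already on the C ring, had the largest decrease of the 10 in *nf-yc triple*, from 12.0 to 2.57 CPM (-2.22 ± 0.21, adjusted p = 3.03e-24). It appears in that table alone. At its Col-0 level, a log2 fold change of -4.07 would have brought it to the lowest level of any gene listed in the table of the combined mutant against Col-0. A level of *UGT79B1* in *hy5* or the combined mutant is not given by the tables. Whether it was among the genes tested there, and whether it changed, is not known.

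Of the acyltransferase genes, *5MAT*, which malonylates the sugar that UGT75C1 adds, decreased most. Its level was 13.6 CPM in Col-0, 3.77 in *nf-yc triple* and 1.10 in *hy5*. Its log2 fold changes were -1.84 ± 0.24 and -3.63 ± 0.31. *3AT1* and *3AT2* encode coumaroyltransferases, and their transcripts are 96.6% identical over 1244 bases, so the split of reads of 150 bases between them is uncertain. *3AT1* fell from 16.2 CPM to 7.34 in *nf-yc triple* and 3.86 in *hy5* (-1.18 ± 0.18 and -2.06 ± 0.18). *3AT2* fell from 17.2 CPM to 8.57 and 7.12 (-1.04 ± 0.15 and -1.27 ± 0.16), the smallest decrease of the 9 late genes listed in *hy5*. *SCPL10*, which moves sinapoyl groups from sinapoylglucose onto anthocyanins, went from 61.5 CPM to 36.0 in *nf-yc triple* and 18.6 in *hy5*. Its log2 fold change in *nf-yc triple*, -0.80 ± 0.10, was among the smallest of the 10, yet its adjusted p was 2.31e-14. In *hy5* it was -1.76 ± 0.14.

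*PAP1*, also called *MYB75*, encodes a MYB activator of the late pathway genes. Its derived level was 4.30 CPM in Col-0, 2.54 in *nf-yc triple* and 0.778 in *hy5*. Its log2 fold change in *nf-yc triple* was -0.74 ± 0.27 with an adjusted p of 0.0429, the highest adjusted p of the 10. In *hy5* it was -2.48 ± 0.37 (adjusted p = 4.85e-10). By subtraction, the 9 genes listed for both mutants were all further below Col-0 in *hy5* than in *nf-yc triple*. The gap was -2.56 on the log2 scale for *DFR*, between -1.89 and -1.74 for *LDOX*, *5MAT*, *TT19* and *PAP1*, between -0.96 and -0.80 for *SCPL10*, *3AT1* and *UGT75C1*, and -0.23 for *3AT2*. No table compares *hy5* with *nf-yc triple*, so these gaps were not tested, and that of *3AT2* is of the size of the errors of its fold changes. In *nf-yc triple*, *NF-YC3*, *NF-YC4* and *NF-YC9* themselves were at -4.08, -0.97 and -2.29, and *HY5* was listed in no table. The strength of the lesions in the 2 lines was therefore not compared.

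**Figure D3:**
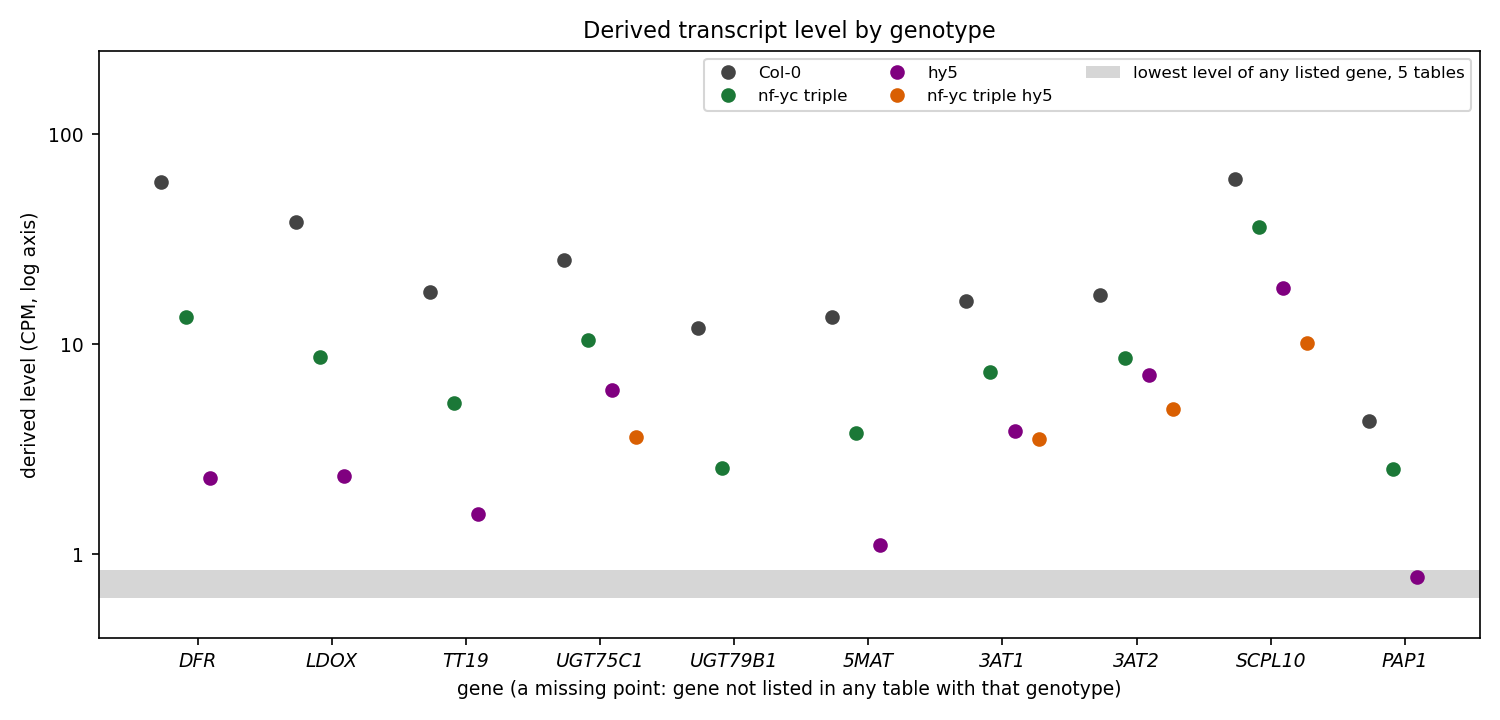
Derived level in CPM (log axis) of each late gene in Col-0, *nf-yc triple*, *hy5* and the combined mutant (*nf-yc triple hy5*), with the band of the lowest levels that any listed gene reached in the 5 tables. Points are means over the tables that list the gene, with a line from the lowest to the highest that the symbol mostly hides. Within every gene Col-0 is highest, and the *PAP1* level in *hy5* lies in the band.

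In the combined mutant against Col-0, 4 of the 10 late genes were listed and all 4 were lower, where 7.03% of genes tested were called lower and 7.67% higher. *UGT75C1* fell to 3.61 CPM (log2 fold change -2.88 ± 0.18), *SCPL10* to 10.2 CPM (-2.65 ± 0.13), *3AT1* to 3.54 CPM (-2.24 ± 0.19) and *3AT2* to 4.94 CPM (-1.86 ± 0.18). *DFR*, *LDOX*, *TT19*, *UGT79B1*, *5MAT* and *PAP1* were not listed, and whether they were among the genes tested there is not known. Of the listed genes, 2 are the near-identical *3AT1* and *3AT2*, and the count is 2 without them. Of the 9 late genes with a value in *hy5*, the 5 with the largest decreases had none in the combined mutant, and *UGT79B1* cannot be placed in this order. The lowest level of any gene listed in that table was 0.713 CPM. Adding the log2 fold changes of *nf-yc triple* and *hy5* to the Col-0 level gave 0.525 CPM for *DFR*, 0.539 for *LDOX*, 0.461 for *TT19*, 0.461 for *PAP1* and 0.307 for *5MAT*, all under it. The same sum was 1.71 CPM for *3AT1*, 2.37 for *UGT75C1*, 3.47 for *3AT2* and 10.4 for *SCPL10*, all above it. The derived levels in the combined mutant were higher than the sum for *3AT1* (3.54), *UGT75C1* (3.61) and *3AT2* (4.94). For *SCPL10* the derived level (10.2) was close to the sum. The sums are thus not measured levels, and those of the genes not listed could be too low.

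This order was set beside all genes that were called lower in both mutants, 9 late genes among them. Of 204 such genes, 28 had a sum under 0.713 CPM, and 11 of these were listed in the combined mutant against Col-0 while 17 were not, the 5 late genes included. Among 137 genes with a sum of 2 CPM or more, 134 were listed (97.8%). Between these limits 30 of 39 were listed. Whether the authors removed genes with low counts before testing is not given in the sources used here. The number of genes tested differed between comparisons, from 19115 to 19347, so a gene could be tested in some comparisons and not in others. Why a late gene is not listed was not tested. A missing row therefore does not show that the gene was at its Col-0 level.

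**Figure D4:**
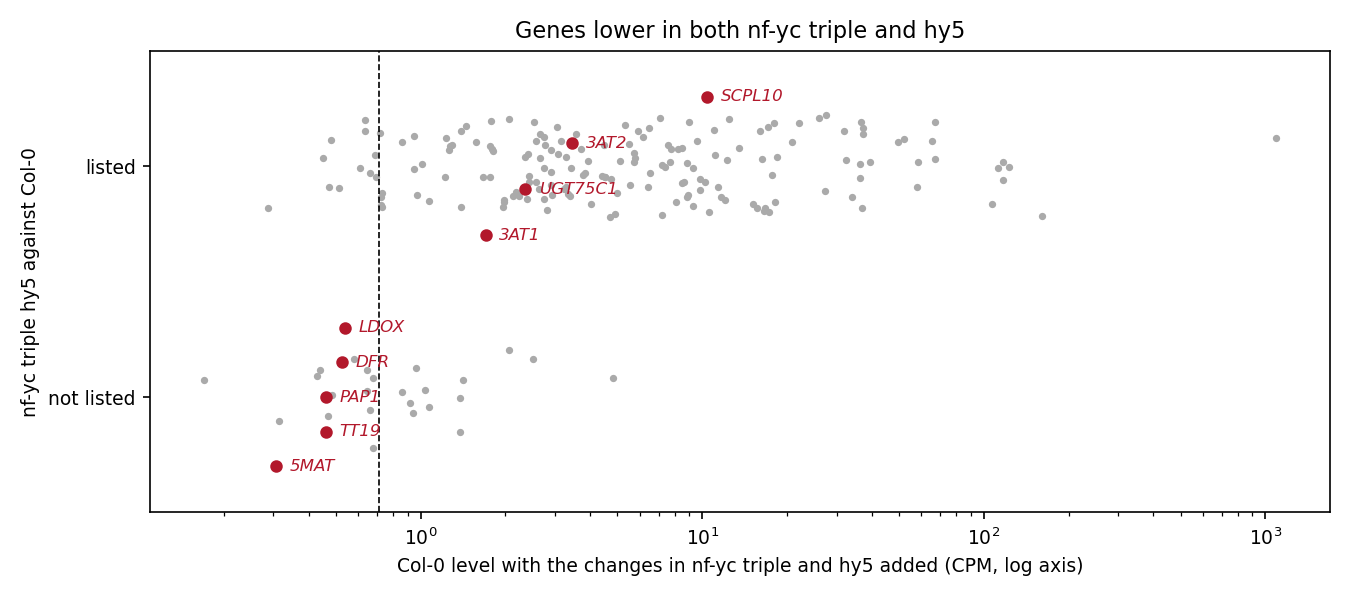
Genes called lower in both *nf-yc triple* and *hy5*, by the level reached when both changes are added to the Col-0 level (CPM, log axis) and by whether the gene is listed in the combined mutant against Col-0. The dashed line is the lowest level of any gene in that table, 0.713 CPM. Height within a row is only to separate points. The 5 late genes not listed lie left of the line and the 4 listed ones right of it.

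The same 4 genes were lower in the combined mutant than in *nf-yc triple*. In this comparison, which takes away *HY5* where the NF-YC genes are already impaired, 4.75% of genes tested were called lower and 5.51% higher. *NF-YC9* was itself listed higher in the combined mutant than in *nf-yc triple* (0.48 ± 0.15, adjusted p = 0.0101), under 1.5-fold. The lines thus did not differ in *HY5* alone. Among the late genes, the decreases differed in size. *SCPL10* changed most (-1.84 ± 0.13, adjusted p = 6.96e-46), then *UGT75C1* (-1.57 ± 0.21), *3AT1* (-1.06 ± 0.26, adjusted p = 0.000412) and *3AT2* (-0.81 ± 0.20, adjusted p = 0.000366). Only *SCPL10* and *UGT75C1* were lower in the combined mutant than in *hy5*, where 1.26% of genes tested were called lower and 0.563% higher. *SCPL10* went from 18.6 to 10.2 CPM (-0.88 ± 0.19, adjusted p = 0.000241) and *UGT75C1* from 6.07 to 3.61 CPM (-0.76 ± 0.23, adjusted p = 0.0254). For *3AT2* and *3AT1*, which are not listed in that table, subtraction of the Col-0 comparisons gave -0.59 and -0.18. These 2 genes and *SCPL10* and *UGT75C1* are the only late genes for which a change by *nf-yc* loss could be set side by side in the presence and absence of *HY5*.

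For *SCPL10* the change by *nf-yc* loss was of like size in *hy5* (-0.88 ± 0.19) and in the wild type (-0.80 ± 0.10), a difference of -0.08 ± 0.21. For *UGT75C1* it was smaller in *hy5*, -0.76 ± 0.23 against -1.31 ± 0.14, a difference of 0.54 ± 0.27. *3AT1* had the widest difference, 1.00 ± 0.32, and *3AT2* had 0.47 ± 0.25, both from the change by *hy5* with and without the NF-YC genes. None of these differences was tested, since that needs values per library. Among 758 genes listed lower in each of *nf-yc triple* and *hy5* and listed in the combined mutant against Col-0, the median difference computed from these 3 comparisons was 0.23, and 83.0% were above 0. Over all 1567 genes listed in these comparisons it was -0.09, with 45.8% above 0. The subset was chosen on changes that share the Col-0 libraries with the difference, so its values are a description only. *SCPL10* lay above 10.8% of the 758 genes, *3AT2* above 77.7%, *UGT75C1* above 82.1% and *3AT1* above 96.6%.

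The pathway before *DFR* gave lower values as well. Of 12 genes from phenylalanine to the dihydroflavonols and flavonols, 7 were called lower in *nf-yc triple*, 9 in *hy5*, 10 in the combined mutant against Col-0, 8 in the combined mutant against *nf-yc triple* and 1 against *hy5*, and none was listed higher. *F3'H*, which makes the dihydroflavonol with the extra hydroxyl group and so stands next to *DFR*, had -2.26 ± 0.15 in *nf-yc triple* and -2.87 ± 0.16 in *hy5*. *F3H*, the step before it, had -0.99 ± 0.11 and -4.83 ± 0.19. The branch-point gene *FLS1*, whose product competes with DFR for dihydroflavonols, had -0.73 ± 0.08 and -4.28 ± 0.13. Unlike *DFR*, these stayed listed in the combined mutant against Col-0, where *CHS*, the entry enzyme of the pathway, was at -5.67, *F3H* at -5.19, *FLS1* at -4.71 and *F3'H* at -3.26.

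**Figure D5:**
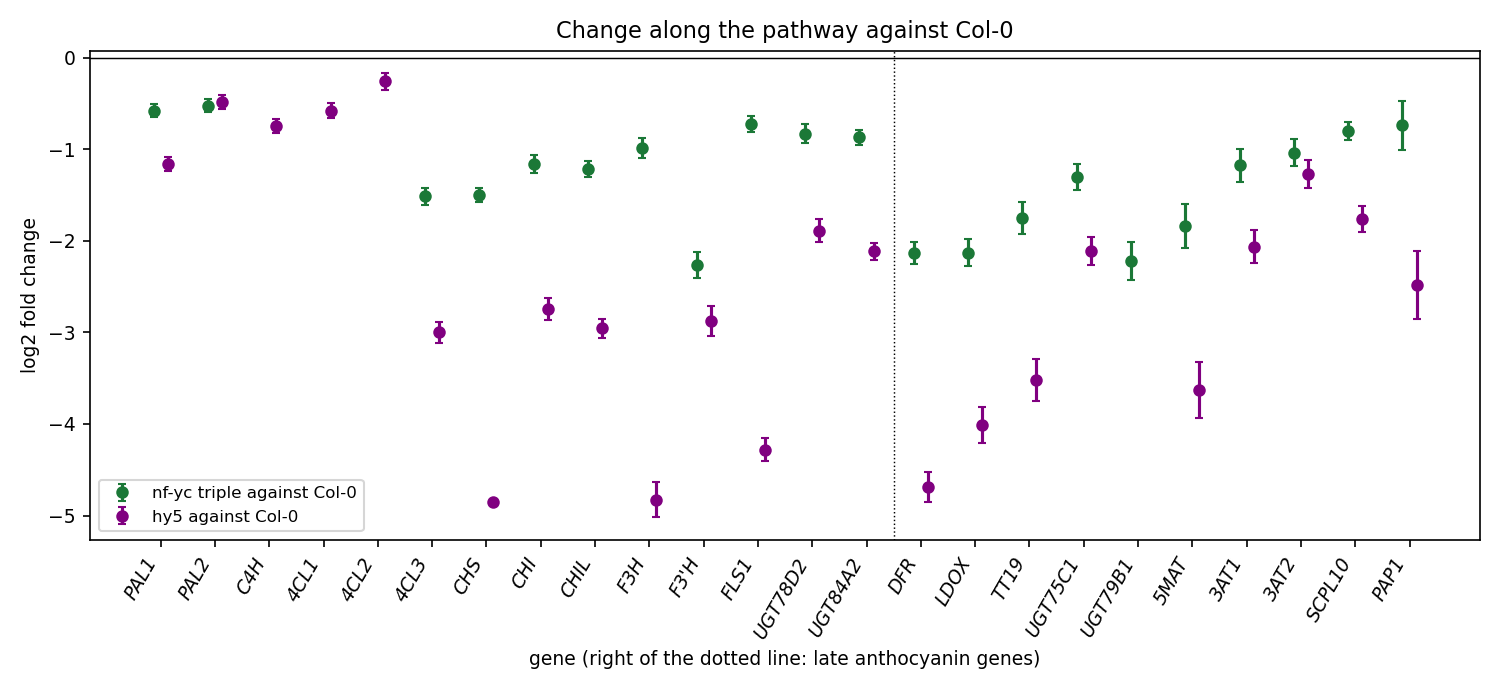
Log2 fold change against Col-0 in *nf-yc triple* and *hy5* for genes in pathway order, with bars for the approximate standard error implied by the p-value. *CHS* in *hy5* has no bar because its p is given as 0. No point means that the gene is not listed. *DFR* and *LDOX* have the lowest values of the 9 late genes listed in *hy5*.

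Genes from a list of other decoration and transport genes were lower as well. *UGT78D2*, which puts the first glucose on the C ring, the sugar that UGT79B1 extends, changed by -0.83 ± 0.10 on the log2 scale in *nf-yc triple* and by -1.89 ± 0.13 in *hy5*. *UGT84A2*, which makes the sinapoylglucose that SCPL10 uses, was at -0.87 ± 0.08 and -2.12 ± 0.10. The number called lower in this group of 7 was 2 in *nf-yc triple*. It was 3 in each of *hy5*, the combined mutant against Col-0 and the combined mutant against *nf-yc triple*. The third gene there was *SNG1*, the same locus that is counted below as *SCPL8* among the relatives. None was called against *hy5*. Of 7 other activators, *EGL3* and *TTG1* were listed but under 1.5-fold, and *PAP2*, *MYB113*, *MYB114*, *TT8* and *GL3* were in no table. The *PAP1* transcript is 81.2% identical to that of *MYB114* over 920 bases. Of 8 repressors, *MYBL2*, whose product blocks the MYB complex, was called higher in *hy5* (0.69 ± 0.10), and *MYB4* was called lower there (-0.59). *MYBL2* was also listed higher in *nf-yc triple* (0.47) and in the combined mutant against Col-0 (0.40), under 1.5-fold. With genes under 1.5-fold included, 4 repressors were listed higher and 1 lower in *hy5*. In the combined mutant against Col-0 these counts were 3 and 1, and against *nf-yc triple* 4 and 1. All 5 genes of the proanthocyanidin branch, which uses the product of LDOX in seed coats, were in no table. Of 3 flavonol regulators, *MYB111* was lower in *nf-yc triple* (-1.63 ± 0.25), *hy5* (-2.12 ± 0.27) and the combined mutant (-1.48 ± 0.25).

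Markers of tissues were read because the samples were whole seedlings. Of 16 root genes, 5 were called higher and 1 lower in *nf-yc triple*, 4 higher in *hy5*, and 1 higher and 1 lower in the combined mutant against Col-0. Against *nf-yc triple*, 4 were called lower in the combined mutant, and none was called against *hy5*. Their listed values against Col-0 lay between -0.76 and 1.56. The 4 shoot genes, which encode small subunits of Rubisco, were listed lower in all 3 comparisons with Col-0, between -0.65 and -0.26, and 1 of them was called, in the combined mutant. Of 3 genes of the shoot epidermis none was called. The part of these shifts in the decrease of the late genes was not tested.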

How the data were processed

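RNA of whole seedlings was sequenced from the 4 genotypes, 2 libraries each, grouped by the labels. The authors demultiplexed reads with CASAVA 1.8.2, mapped them to TAIR10 representative gene models with BWA and compared genotypes with edgeR, with version, low-count filter and dispersion not given in the sources used here. The log2 fold change and the mean log2 CPM are deposited edgeR output of the authors. The p-values and Benjamini-Hochberg adjusted p-values are also as deposited, and a gene is listed only below 0.05 in the latter. The column of signed fold changes, a score made by the authors, served only as an alternative. Columns with no mapped sample were used in 0 cases. Separate cultures are not stated for a genotype's 2 libraries, and the p-values then measure library-to-library spread, which could be technical alone.

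Calls needed an adjusted p under 0.05 over all genes tested and 1.5-fold or more, the thresholds of the study's methods. The number of tests follows from the p-value, its rank and the adjusted p. Levels were solved from the log2 fold change and the mean log2 CPM, and the implied error is the log2 fold change over the normal quantile of p. The number of tests and the levels were checked on simulated data, and the implied error was not. Python 3.11.15, pandas 2.3.3, SciPy 1.17.1 and BLAST+ 2.17.0 (closest other transcript) were used. Promoters and gene models came from RefSeq on TAIR10.1, in which all 10 genes and all 90 list entries matched by identifier. *3AT1*, *3AT2* and *UGT75C1* have no symbol there and are named as their common names. The members and the lists were chosen with earlier results of these data known. Named genes are the 10 members, up to 4 called genes per list and comparison with the smallest adjusted p, list genes next to a member in the pathway, the mutated genes and the 5 genes of most similar profile. *EGL3*, *TTG1* and list genes in no table are named beside counts and were chosen after their values were seen. Alternatives were other fold and p thresholds, indirect routes through another genotype and levels from single tables.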

Additional observations from a re-analysis of the deposited data

How the results depend on the processing

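The count of late genes called lower against Col-0 was between 8 and 10 for *nf-yc triple* and between 7 and 9 for *hy5* under each alternative run, the 8 at 2-fold or without *3AT1* and *3AT2*, and 25 of 32 alternative counts over the 5 comparisons were within 1.5 times. In the combined mutant against Col-0 the count of 4 became 2 by the indirect route through *hy5*, since only 2 genes are listed in the combined mutant against *hy5*. Without *3AT1* and *3AT2*, a choice made after seeing the data, it was 2 there and 2 against *nf-yc triple*, and 2 with Bonferroni adjustment in the latter. Against *hy5* the count of 2 became 0 at 2-fold, 1 at an adjusted p under 0.01 and 0 with Bonferroni adjustment. Over the 4 genes listed in all comparisons with Col-0, the median log2 fold change moved from -1.53 to -1.11 in *nf-yc triple* and from -2.48 to -1.91 in *hy5*, because the genes with the largest decreases are not among them. The 44 levels from single tables and the other route to the difference in *SCPL10* (-0.08) and *UGT75C1* (0.54) stayed within the implied error. No paired analysis was possible because no value per library was analysed here. Leaving out replicates was not run for the same reason. Genes near 1 CPM, such as *PAP1* and *5MAT* in *hy5*, are at the edge of what the tables list.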

Other observations

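Relatives of the late genes were read beside them. Of 11 such genes, 2 were called lower in *nf-yc triple*, 4 in *hy5* and 5 in the combined mutant, each against Col-0. In the combined mutant against *nf-yc triple*, 3 were called lower (*SCPL8*, also named *SNG1*, *SCPL9* and *SCPL12*) and 1 higher (*PMAT1*, log2 fold change 0.59), and 1 was called lower against *hy5* (*SCPL9*). *SCPL8* and *SCPL9* were listed lower in all 5 tables. *SCPL9* (AT2G23010), a neighbour of *SCPL10* on chromosome 2 whose transcript is 86.4% identical over 1333 bases, had log2 fold changes of -1.26 ± 0.20 in *nf-yc triple*, -1.06 ± 0.19 in *hy5* and -2.83 ± 0.26 in the combined mutant against Col-0. Against *hy5* it was at -1.75 ± 0.30 in the combined mutant, beside -0.88 ± 0.19 for *SCPL10*. *SCPL12* (AT2G22920), of the same family, was not listed in *nf-yc triple* and was at -1.47 ± 0.16 in *hy5*. *SCPL11* and *SCPL13*, chosen after their values were seen, were listed higher in *nf-yc triple*, at 0.46 and 0.35, under 1.5-fold. *UGT79B2*, a relative of *UGT79B1*, had -0.54 ± 0.13 in *nf-yc triple* and a value of -1.25 ± 0.14 in *hy5*, and so was listed in *hy5* where *UGT79B1* was not. *GSTF11*, the closest transcript to *TT19* at 75.9% identity over 638 bases, had -0.61 ± 0.15 in *nf-yc triple* and a value of -0.48 ± 0.17 in *hy5*.

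Of 282 genes listed in all 5 tables, the 5 closest to the median profile of *SCPL10* and *UGT75C1* over the 5 log2 fold changes were *RVE8* (AT3G09600, Euclidean distance 0.42), *HYH* (AT3G17609, 0.54), AT5G05250 (0.54), *ASG4* (AT1G01520, 0.65) and *AFR* (AT2G24540, 0.66). *HYH*, the homologue of *HY5*, had values of -0.73 in *nf-yc triple*, of -1.59 in *hy5* and of -2.55 in the combined mutant against Col-0. *RVE8*, a clock-associated MYB-like gene, was at -0.75, -1.76 and -2.56. The likeness is a description over 5 comparisons that share libraries.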
